A study of Homo sapiens with 12 samples.

Results

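The genes described here are the autophagy machinery and its cargo receptors, a list of 49 human genes chosen by name. All 49 were in the table, 48 under the listed symbol and 1, RUBCN, under its older symbol KIAA0226, among 12616 genes in all. They were measured in MeWo and SkMel28, established human melanoma cell lines in which doxycycline (Dox) switches on a hairpin RNA that targets MITF, the transcription factor that sets melanocyte identity. Both lines carried the hairpin in every group, and were kept for 8 days with 0 µg/ml Dox (control) or 1 µg/ml Dox, with 3 replicates per line and dose, which gave 12 libraries in 4 groups. The hairpin lines had been received as a gift, and whether each was 1 clone is not given in the sources used here. No line without the hairpin was given Dox, so that an effect of the drug and an effect of the hairpin cannot be told apart. Per the labels the medium was EMEM for MeWo and RPMI for SkMel28, whereas the study's methods name RPMI for human lines in general. If the labels hold, line and medium cannot be told apart either.

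Autophagy encloses cytoplasm in a double membrane, the autophagosome, and delivers it to lysosomes for breakdown. A kinase complex built on ULK1 starts the process, a lipid kinase complex marks the site, lipids are brought in to extend the membrane, and a ubiquitin-like conjugation system attaches the small ATG8 proteins to it. Cargo receptors bridge ATG8 proteins and marked cargo, and a SNARE and tethering set then joins the closed vesicle to the lysosome. The relatives of MITF, TFEB and TFE3, are known for driving genes of lysosomes and autophagy. The comparisons asked whether the transcripts of this machinery changed when MITF was lowered, whether the lines differed in that change, and how the lines differed without Dox.

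Libraries were made with a 3′ end kit, in which a transcript gives reads near its polyadenylation site only. The values are read counts scaled to an effective library size, and a value of 1 corresponds to about 3 reads. Each library held 2568187 to 3714608 reads, of which 5.69 to 8.55% came from synthetic ERCC spike-in RNAs. A total of 25 members had a median of at least 100 reads over the libraries, and 8 had a median under 30. All 8 melanocyte lineage markers sought were in the table, while of 10 markers of other cell types only DCN was, at values of 0 in all SkMel28 libraries and at most 2.87 in MeWo. A single library stood apart from its group. In a chi-square test of read counts, MeWo Dox replicate 1 differed from its partners by 18.9 and 16.5 per degree of freedom, against 1.57 to 5.76 for the other pairs of replicates, and results in MeWo are therefore also given without it.

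Changes were tested with limma on log2(value + 1) over all genes, with Benjamini-Hochberg adjustment over all 12616 genes, and "called" means an adjusted p under 0.05. MITF, the target of the hairpin, was read at 657, 663 and 708 in the MeWo control libraries and at 451, 354 and 371 with Dox. It was read at 861, 739 and 792 in the SkMel28 control libraries and at 575, 578 and 552 with Dox. The groups did not overlap in either line. The log2 change was -0.79 ± 0.11 (SE, n = 3 per group, adjusted p = 6.49e-05) in MeWo and -0.49 ± 0.11 (n = 3 per group, adjusted p = 0.00705) in SkMel28. On this scale MITF stood at 0.578 of its control level in MeWo and at 0.714 in SkMel28. The MeWo call was kept in all 23 alternatives. The SkMel28 call was lost in 1 of 23, just above the threshold, with changes of -0.58 to -0.43 over them. The difference between the lines was -0.31 ± 0.15 (adjusted p = 0.225), and was called without MeWo Dox replicate 1, at -0.41.

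Few of the autophagy genes changed with Dox, and none of the changes reached 2-fold. In MeWo 7 of 49 members were called (14.3%), against 16.7% of all genes. All 7 were lower (lower in 8.12% of all genes) and 0 were higher (higher in 8.58% of all genes). At an unadjusted p under 0.05, limma counted 4 higher and 11 lower members, 15 of 49, beside 3860 of all 12616 genes. At an adjusted p under 0.05, edgeR called 0 higher (9.04% of all genes) and 6 lower (7.17%). DESeq2 called 2 higher (8.64% of all genes) and 6 lower (6.19%) at that threshold. In SkMel28 5 of 49 were called (10.2%), against 10.9% of all genes. Of these, 3 were higher (5.88% of all genes) and 2 lower (5.04% of all genes), and with scaling to the spike-ins the 3 rises were no longer called. Both shares lie near those of all genes. The median log2 change of the 49 was -0.03 in MeWo and 0.09 in SkMel28, beside medians of 0 and 0.003 over all genes. The MeWo changes ran from -0.80 to 0.39, those in SkMel28 from -0.80 to 0.87. The 95% interval of the change stayed within 2-fold in either direction for 44 members in MeWo and for 45 in SkMel28. In bulk RNA, fewer cells of a kind and less RNA per cell cannot be told apart.

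Where the mean reached 50 in either group of a line, 24 members in MeWo included all 7 called ones, where 29.4% of all such genes were called. STX17, CALCOCO2 and BNIP3 reached 50 in MeWo control only, at means of 51.4, 71.2 and 71.1, against 34.6, 46.7 and 46.5 with Dox. Since this rule uses the values compared, for members and all genes alike, the shares at this level are description only. In SkMel28, 20 members lay at that level and 3 were called, where 20.4% of all such genes were called. Reads of autophagy genes made up 0.391% ± 0.008 of gene reads in MeWo control, 0.366% ± 0.015 with Dox, 0.434% ± 0.012 in SkMel28 control and 0.453% ± 0.007 with Dox (SD, n = 3 each). Each MeWo Dox library lay below the MeWo control libraries, while the SkMel28 groups overlapped.

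**Figure D1:**
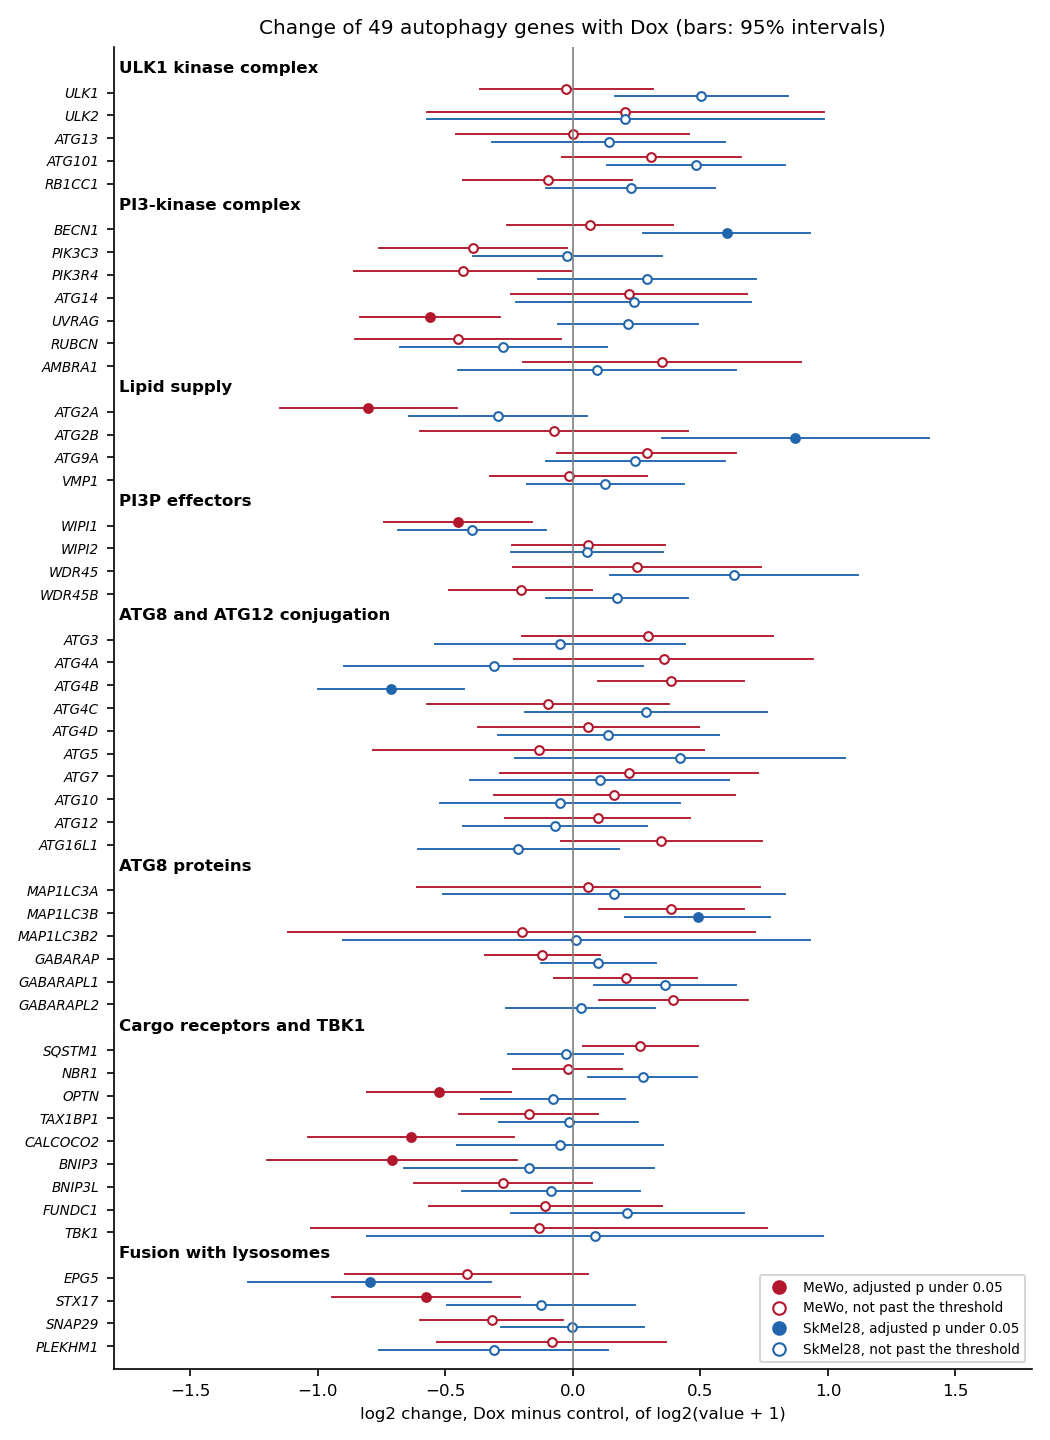
Log2 change with Dox (x axis, Dox minus control on log2(value + 1)) for all 49 members, grouped by role, with 95% intervals; red is MeWo, blue is SkMel28, and filled points passed an adjusted p of 0.05. Most points lie within 0.5 of zero, the 7 filled MeWo points all lie to the left, and no gene is filled in both lines.

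No member was called in both lines by the reported limma fit, while 515 of all genes were (4.08%). At an unadjusted p under 0.05 in each line there were 3 such members, WIPI1, ATG4B and MAP1LC3B, and ATG4B had opposite signs. At this threshold 3860 of all 12616 genes passed in MeWo and 2989 in SkMel28, and the number passing in both is not given here. edgeR called 0 members in both lines and DESeq2 called 1. Without MeWo Dox replicate 1, WIPI1, MAP1LC3B and ATG4B were called in both lines by limma, ATG4B again with opposite signs. In that fit 31.0% of all genes were called in MeWo and 16.2% in SkMel28. WIPI1 was also called in both without MeWo Dox replicate 3, and MAP1LC3B without SkMel28 control replicate 2. Seen library by library, the 3 Dox libraries lay wholly above the 3 control libraries for 4 members and wholly below for 10 in MeWo, against 14.1% and 14.7% of all genes. In SkMel28 they lay wholly above for 11 members and wholly below for 4, against 16.1% of all genes in each direction. The same direction without overlap in both lines was found for MAP1LC3B, which was higher (4.53% of all genes), and for WIPI1, which was lower (4.59% of all genes).

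The 5 genes of the ULK1 kinase complex, which receives nutrient signals and starts autophagosome formation, gave no call by the reported limma fit, edgeR or DESeq2 in either line. In MeWo their log2 changes ran from -0.10 to 0.31, and 0 had an unadjusted p under 0.05. In SkMel28 all 5 estimates were above zero, from 0.14 to 0.50, as were 6343 of all 12616 genes. Of the 5, 2 had an unadjusted p under 0.05, beside 2989 of all genes. The kinase ULK1 itself read 39.8, 31.7 and 42.5 in SkMel28 control and 50.2, 56.5 and 55.3 with Dox, without overlap, and missed the threshold (adjusted p = 0.0535). It was called in 5 of 23 alternatives, among them the fit without MeWo Dox replicate 1, where ATG101 was called as well. ULK1 and ATG101 were named after their values were seen.

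Among the 7 genes of the PI3-kinase complex, which makes the lipid PI3P on the forming membrane, UVRAG and BECN1 were called, in different lines. UVRAG (chr11:75815210-76144232, plus strand, hg38), a subunit that takes the place of ATG14 in the form of the complex used in endosomes and late autophagosomes, read 117, 116 and 108 in MeWo control and 72.8, 77.3 and 80.9 with Dox. The MeWo groups lay well apart, and the log2 change was -0.56 ± 0.13 (SE, n = 3 per group, adjusted p = 0.00635). In SkMel28 it read 23.1, 19.4 and 20.3 without Dox and 24.9, 25.1 and 23.3 with Dox, all far below any MeWo library. The change there was 0.22 ± 0.13 (adjusted p = 0.338), and the difference between the lines' changes was -0.78 ± 0.18 (adjusted p = 0.0170), a difference called under the reported scaling. Without MeWo Dox replicate 1 the MeWo change was -0.52 and stayed called. The difference between the lines was no longer called with spike-in scaling, at -0.41, or without MeWo control replicate 2, at -0.76. With spike-in scaling the MeWo fall, at -0.29, was not called either.

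BECN1 (chr17:42810134-42833350, minus strand), the scaffold of the PI3-kinase complex, read 112, 104 and 120 in SkMel28 control and 178, 162 and 171 with Dox. Every Dox library lay above every control library, with a log2 change of 0.60 ± 0.15 (SE, n = 3 per group, adjusted p = 0.0174). The call was lost without SkMel28 control replicate 1 (0.61), control replicate 2 (0.55), Dox replicate 1 (0.57) or Dox replicate 3 (0.60), and with spike-in scaling (0.50). MeWo read 100, 112 and 108 without Dox and 148, 84.5 and 111 with Dox, so that its Dox libraries spanned the control range and the change was 0.07 ± 0.15 (adjusted p = 0.818). Without MeWo Dox replicate 1, the highest of these, the MeWo estimate turned to -0.13 and was not called. The other 5 genes of the complex, PIK3C3, PIK3R4, ATG14, RUBCN and AMBRA1, were not called in either line, with MeWo changes of -0.45 to 0.35 and SkMel28 changes of -0.27 to 0.29.

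ATG2A and ATG2B are close relatives that act as lipid transfer proteins between the endoplasmic reticulum and the growing membrane. ATG2A was called in MeWo and ATG2B in SkMel28, while the reported fit called the difference between the lines' changes for neither. ATG2A (chr11:64894546-64917209, minus strand) read 181, 158 and 168 in MeWo control and 77.6, 111 and 104 with Dox. No library overlapped, and the log2 change of -0.80 ± 0.17 (SE, n = 3 per group, adjusted p = 0.00268) was a fall to 0.574 of the control level, the largest of a member in MeWo with all libraries. Without MeWo Dox replicate 1, the lowest library, it was -0.65 and called, and the falls of BNIP3, CALCOCO2 and STX17 were then larger. With spike-in scaling it was -0.53 and not called. SkMel28 libraries read 42.0, 48.2 and 54.4 without Dox and 35.6, 33.8 and 49.3 with Dox, overlapping, with a change of -0.29 ± 0.17 (adjusted p = 0.308). The difference between the lines' changes, -0.51 ± 0.23, did not pass (adjusted p = 0.185).

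ATG2B (chr14:96279195-96363341, minus strand) read 6.13, 6.66 and 12.3 in SkMel28 control and 18.4, 15.4 and 13.0 with Dox. The groups were close at their edges, 12.3 against 13.0, but did not overlap, and the log2 change of 0.87 ± 0.25 (SE, n = 3 per group, adjusted p = 0.0315) was the largest called rise with all libraries. ATG2B had 21 to 62 reads per library, and the call was lost without SkMel28 control replicate 1 (0.71), control replicate 2 (0.76), Dox replicate 1 (0.75) or Dox replicate 2 (0.88), and with spike-in scaling (0.78). MeWo read 16.4, 12.8 and 19.4 without Dox and 17.2, 13.3 and 15.2 with Dox, which overlapped, with a change of -0.07 ± 0.25. The difference between the lines was -0.95 ± 0.35 (adjusted p = 0.105). ATG9A, the membrane-spanning lipid scramblase, and VMP1 were not called in either line.

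Of the 4 genes whose proteins bind PI3P, WIPI1 was called. WIPI1 (chr17:68420948-68457513, minus strand), which reads the PI3P mark and helps recruit the conjugation machinery, read 367, 389 and 393 in MeWo control and 245, 251 and 357 with Dox. The third Dox library lay close to control while the others lay far below. Its log2 change was -0.45 ± 0.14 (SE, n = 3 per group, adjusted p = 0.0332). In SkMel28 it read 130, 149 and 126 without Dox and 110, 91.6 and 105 with Dox, again without overlap, with a change of -0.39 ± 0.14 that missed the threshold (adjusted p = 0.0792). The SkMel28 fall was called without MeWo Dox replicate 1 or 3 and with each line fitted alone. The changes differed by -0.05 ± 0.19 (95% interval -0.46 to 0.36, adjusted p = 0.891), which leaves room for an unlike response. The MeWo call was lost without MeWo control replicate 1 (-0.48), 2 (-0.44) or 3 (-0.43) or Dox replicate 2 (-0.37), and was -0.35 and called without Dox replicate 1.

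Reads of WIPI1 may be shared with ARSG, since 3 of 4 annotated WIPI1 transcripts end on an exon of that gene on the opposite strand, and the strand used in counting is not given in the sources used here. ARSG itself read between 4.66 and 13.0 in every library and gave a change of -0.04 in MeWo and 0.08 in SkMel28. The other PI3P binders, WIPI2, WDR45 and WDR45B, were not called in either line. In SkMel28 limma, edgeR and DESeq2 each called 0 of the 4 genes. At an unadjusted p under 0.05 limma counted 2 of the 4 there, beside 2989 of all 12616 genes.

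**Figure D2:**
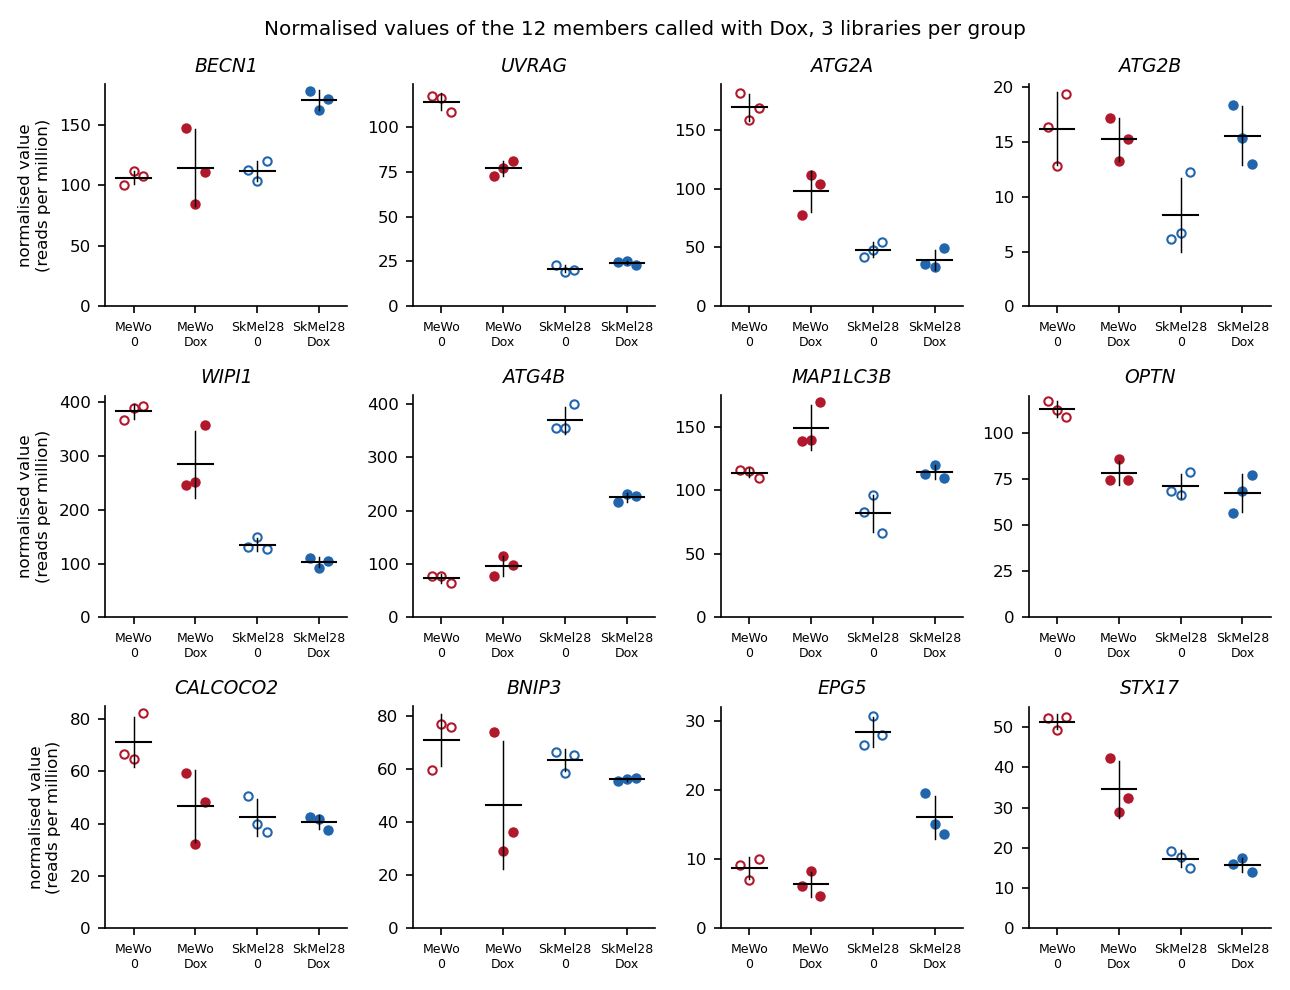
Normalised values (y axis, read counts scaled to library size, each panel from zero) of the 12 members called with Dox in either line; points are libraries with replicates 1 to 3 from left to right, open without and filled with Dox, and black lines give mean and SD of 3. In MeWo (red) the groups do not overlap for UVRAG, ATG2A, WIPI1, MAP1LC3B, OPTN, CALCOCO2 and STX17. In SkMel28 (blue) they do not overlap for BECN1, UVRAG, ATG2B, WIPI1, ATG4B, MAP1LC3B, BNIP3 and EPG5. BNIP3 in MeWo has a Dox library at the control level.

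Of the 10 genes of the conjugation system, which ties ATG12 to ATG5 and ATG8 proteins to lipid, ATG4B alone was called with Dox. ATG4B (chr2:241637213-241673857, plus strand) is the main protease that trims ATG8 proteins before and after their attachment. It read 355, 355 and 399 in SkMel28 control and 216, 232 and 227 with Dox. The groups were far apart, with a log2 change of -0.71 ± 0.14 (SE, n = 3 per group, adjusted p = 0.00206), to 0.610 of the control level. In MeWo it read 78.0, 77.7 and 63.8 without Dox and 77.6, 114 and 98.2 with Dox, where Dox replicate 1 fell within the control range. The MeWo change of 0.38 ± 0.14 pointed upward and was not called (adjusted p = 0.0617), while without Dox replicate 1 it was 0.53 and called.

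The difference between the lines for ATG4B was 1.097 ± 0.19 (adjusted p = 0.00244), the largest of any member with all libraries, and it passed in all 22 alternatives to the test, as did the fall in SkMel28 in all 23. Its means were 73.2 and 96.6 without and with Dox in MeWo and 370 and 225 in SkMel28, so the lines lay closer together with Dox than without. The remaining 9 genes of the system, ATG3, ATG4A, ATG4C, ATG4D, ATG5, ATG7, ATG10, ATG12 and ATG16L1, were not called in either line. Their MeWo changes ran from -0.13 to 0.36 and their SkMel28 changes from -0.31 to 0.42. For MeWo the system had 0 calls by limma, edgeR or DESeq2, with 1 gene, ATG4B, at an unadjusted p under 0.05. Several of these genes were shallow, with ATG7 at 11 to 21 reads per library and ATG5 at 13 to 48.

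Among the 6 ATG8 genes, whose products coat the autophagosome membrane and bind cargo receptors, MAP1LC3B was called. MAP1LC3B (chr16:87383953-87404779, plus strand), the source of the widely used autophagosome marker LC3B, read 83.0, 95.8 and 66.7 in SkMel28 control and 113, 120 and 109 with Dox. Its log2 change there was 0.49 ± 0.13 (SE, n = 3 per group, adjusted p = 0.0258). In MeWo it read 116, 115 and 109 without Dox and 139, 140 and 169 with Dox, all above control, with a change of 0.39 ± 0.13 that missed the threshold (adjusted p = 0.0590). It is the member whose Dox libraries lay above control throughout, and the lines' changes differed by -0.10 ± 0.19 (95% interval -0.50 to 0.30).

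The SkMel28 call of MAP1LC3B was lost without SkMel28 control replicate 1 (0.51) or 3 (0.35) or without Dox replicate 1 (0.50), 2 (0.45) or 3 (0.52), and with spike-in scaling (0.39). In MeWo the gene became called without Dox replicate 1, at 0.44, and in DESeq2 at 0.41. Its near-identical copy MAP1LC3B2 had 0 to 13 reads per library, and reads could be split between them by a counting rule that is not given in the sources used here. In MeWo limma and edgeR called 0 ATG8 genes, 2 had an unadjusted p under 0.05, and DESeq2 called those 2, MAP1LC3B and GABARAPL2. GABARAPL2 read 207, 194 and 184 without Dox and 208, 283 and 285 with Dox in MeWo, and was not called by limma. It was named after its values were seen.

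Of the 9 genes for cargo receptors and the kinase TBK1, 3 were called lower in MeWo by limma, where 8.12% of all genes were. edgeR and DESeq2 each called 2 lower and left out BNIP3. In MeWo 8 of the 9 estimates were below zero, beside 6294 of all 12616 genes. In SkMel28, 0 were called by limma, edgeR or DESeq2, with 1 at an unadjusted p under 0.05. OPTN (chr10:13099449-13138308, plus strand), a ubiquitin-binding receptor for damaged mitochondria and bacteria, read 117, 112 and 108 in MeWo control and 74.7, 85.7 and 74.2 with Dox. The MeWo groups were clearly separate, with a log2 change of -0.52 ± 0.13 (SE, n = 3 per group, adjusted p = 0.0123). SkMel28 read 68.2, 66.3 and 78.6 without Dox and 56.7, 68.5 and 77.4 with Dox, a change of -0.08 ± 0.13 over overlapping libraries. The MeWo change was -0.49 without Dox replicate 1 and still called, and was -0.50 and not called without control replicate 1.

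CALCOCO2 (chr17:48831018-48866522, plus strand), which encodes the receptor NDP52 for bacteria and mitochondria, read 66.5, 64.9 and 82.3 in MeWo control and 59.4, 32.2 and 48.4 with Dox. The groups did not overlap, yet the Dox libraries spread widely, and the log2 change was -0.63 ± 0.19 (SE, n = 3 per group, adjusted p = 0.0311). The call was lost without MeWo control replicate 1 (-0.68), 2 (-0.70) or 3 (-0.53) or without Dox replicate 2 (-0.39) or 3 (-0.68), and the change was -0.83 and called without Dox replicate 1. In SkMel28 the libraries read 50.4, 40.0 and 36.8 without Dox and 42.5, 41.8 and 37.5 with Dox, with a change of -0.05 ± 0.19.

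BNIP3 (chr10:131967684-131981967, minus strand), a mitochondrial outer membrane receptor known for its induction by low oxygen, read 59.9, 77.3 and 76.1 in MeWo control and 74.1, 29.2 and 36.2 with Dox. Here the groups overlapped, since Dox replicate 1 lay within the control range, and the log2 change of -0.71 ± 0.23 (SE, n = 3 per group, adjusted p = 0.0452) was close to the threshold. It was called in 5 of 23 alternatives, and neither edgeR nor DESeq2 called it. Without Dox replicate 1 the change was -1.10 and called, while without any other library of either line it was -0.83 to -0.44 and not called. The values at each removal were -0.83, -0.64 and -0.65 for MeWo control replicates 1 to 3, -0.44 and -0.59 for Dox replicates 2 and 3, and -0.71 for each SkMel28 library. SkMel28 read 66.5, 58.7 and 65.5 without Dox and 55.5, 56.5 and 56.8 with Dox, a small drop without overlap that was not called (-0.17 ± 0.23). BNIP3 has 44 annotated pseudogenes, none of which is listed in the table, and how reads matching several places were treated is not given in the sources used here.

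SQSTM1, encoding p62, the receptor whose protein is itself degraded by autophagy, read 492, 456 and 441 in MeWo control and 571, 592 and 507 with Dox. All Dox libraries were higher, but the log2 change of 0.27 ± 0.11 was not called (adjusted p = 0.10002). In SkMel28 the libraries overlapped, from 920 to 1042 without Dox and from 918 to 1076 with Dox, with a change of -0.03 ± 0.11. The other receptors NBR1, TAX1BP1, BNIP3L and FUNDC1 and the kinase TBK1 were not called in either line. Their MeWo changes ran from -0.27 to -0.02 and their SkMel28 changes from -0.09 to 0.27.

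Of the 4 genes that join the autophagosome to the lysosome, STX17 was lower in MeWo and EPG5 was lower in SkMel28, and all 8 estimates in the 2 lines were below zero. STX17 (chr9:99906654-99974534, plus strand), the SNARE protein on the closed autophagosome, read 52.4, 49.3 and 52.5 in MeWo control and 42.5, 28.8 and 32.5 with Dox. The groups were apart, with a log2 change of -0.58 ± 0.17 (SE, n = 3 per group, adjusted p = 0.0311). The call was lost without MeWo control replicate 1 (-0.56), 2 (-0.60) or 3 (-0.56) or without Dox replicate 2 (-0.46) or 3 (-0.54), and the change was -0.73 and called without Dox replicate 1. SkMel28 read 19.2, 17.8 and 14.9 without Dox and 16.0, 17.4 and 13.9 with Dox, overlapping, with a change of -0.13 ± 0.17.

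EPG5 (chr18:45800581-45967329, minus strand), a tether that recognises late endosomes and lysosomes, read 26.5, 30.8 and 28.0 in SkMel28 control and 19.6, 15.04 and 13.6 with Dox. Each Dox library was below each control library, and the log2 change was -0.80 ± 0.23 (SE, n = 3 per group, adjusted p = 0.0309). The call was lost without SkMel28 control replicate 1 (-0.84), 2 (-0.74) or 3 (-0.81) or Dox replicate 2 (-0.76) or 3 (-0.69). MeWo held far less, with 9.21, 6.99 and 10.0 without Dox and 6.06, 8.34 and 4.74 with Dox, with a change of -0.42 ± 0.23 (adjusted p = 0.227) that missed the threshold. SNAP29, the SNARE partner of STX17, and PLEKHM1, a lysosomal adaptor, were not called in either line.

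Between the lines, the difference in change with Dox was called for 2 of 49 members (4.08%), against 7.09% of all genes, UVRAG, called lower in MeWo and at 0.22 in SkMel28 (lower in 3.38% of all genes) and ATG4B with the fall in SkMel28 (higher in 3.71% of all genes). edgeR and DESeq2 each called 2 as well. The other 10 members called in 1 line only are therefore not shown to differ between lines. The median difference over the 49 was -0.18, beside -0.02 over all genes, with 35 estimates below zero, beside 6502 of all 12616 genes. Without MeWo Dox replicate 1, 9 members differed between lines (18.4%), against 24.7% of all genes.

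That library weighed on the counts in both lines, because all groups share an estimate of the spread. Without it, 16 of 49 members were called in MeWo, against 31.0% of all genes, of which 5 were higher, namely ATG4B, MAP1LC3B, GABARAPL2, ATG9A and AMBRA1. All 7 reported calls stayed among the 16. In SkMel28, 10 members were then called (20.4%), against 16.2% of all genes. Without any other MeWo library, 2 to 4 members were called in MeWo, against 10.2 to 12% of all genes, and without any SkMel28 library, 1 to 3 were called in SkMel28, against 6.21 to 8.27% of all genes. Scaling to the spike-ins also altered the direction of the calls. Spike-ins held 6.29 to 8.43% of reads in MeWo control and 5.69 to 6.58% with Dox, and this scaling moved the median of all genes in MeWo to 0.22. On it, 5 members were called higher (ATG4B, ATG9A, GABARAPL2, MAP1LC3B and SQSTM1) and 0 lower, in place of 0 higher and 7 lower, while 16.6% of all genes were called higher and 3.04% lower. The 7 members lower under the reported scaling kept negative estimates, from -0.53 to -0.18, none of them called. In SkMel28 the same scaling left 0 members higher (3.12% of all genes) and 2 lower (4.22% of all genes), ATG4B and EPG5, in place of 3 higher and 2 lower.

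**Figure D3:**
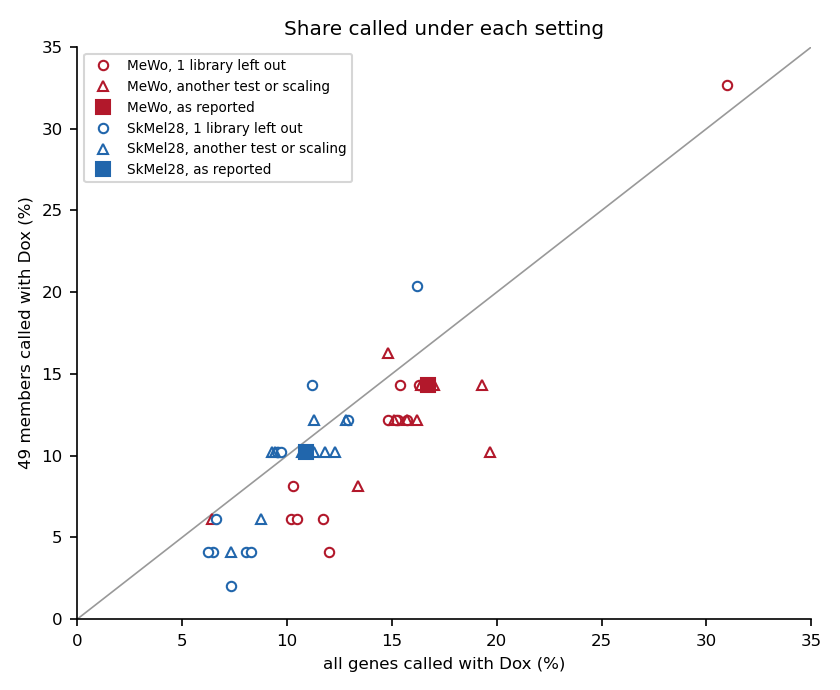
Share of the 49 members called with Dox (y axis, %) against the share of all genes called (x axis, %) under each test, scaling or left-out library, with MeWo in red, SkMel28 in blue and the line of equal shares in grey. Most MeWo points lie below the line, some well below, such as spike-in scaling at 19.7% of all genes, while SkMel28 points lie on both sides. The MeWo point at 31.0% of all genes is the fit without MeWo Dox replicate 1.

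The lines differed far more from each other than either did with Dox. Without Dox, 24 of 49 members differed (49%), against 51.4% of all genes, with 9 higher in SkMel28 (26.6% of all genes) and 15 lower (24.8% of all genes). The difference was at least 2-fold for 8 of them. The control libraries of the lines did not overlap for 28 members, 9 higher in SkMel28 (31.6% of all genes) and 19 lower (30.5% of all genes). The median log2 difference, SkMel28 minus MeWo, was -0.12, beside a median of 0 over all genes.

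UVRAG and ATG4B, the members that changed differently with Dox, were also the farthest apart without it. UVRAG read 108 to 117 in MeWo control and 19.4 to 23.1 in SkMel28 control, a log2 difference of -2.39 ± 0.13 (SE, n = 3 per group, adjusted p = 9.18e-11). ATG4B stood the other way, at 63.8 to 78.0 in MeWo and 355 to 399 in SkMel28, a difference of 2.33 ± 0.14 (adjusted p = 2.40e-10), or 5.01-fold. Since the interaction and the line comparison share these control libraries, the values are given side by side only.

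MeWo held more ATG2A (log2 difference -1.79 ± 0.17), STX17 (-1.52 ± 0.17), WIPI1 (-1.50 ± 0.14), ATG2B (-0.92 ± 0.25) and CALCOCO2 (-0.74 ± 0.19), whose library values are given above. SkMel28 held more EPG5 (1.60 ± 0.23), and the groups were far apart for each of these except ATG2B, whose control libraries read 12.8 to 19.4 in MeWo and 6.13 to 12.3 in SkMel28.

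ATG10 (chr5:81972023-82276857, plus strand), the enzyme that passes ATG12 on to ATG5, read 9.21, 6.605 and 8.10 in MeWo control and 15.6, 18.7 and 21.1 in SkMel28 control. The lines did not overlap, with a log2 difference of 1.12 ± 0.22 (SE, n = 3 per group, adjusted p = 0.000463) at 17 to 62 reads per library. SQSTM1 (chr5:179806398-179838078, plus strand) read 441 to 492 in MeWo control and 920 to 1042 in SkMel28 control, a difference of 1.11 ± 0.11 (adjusted p = 1.53e-07). These 10 differences, the largest by size, were called under all 22 alternatives. By role, where 26.6% of all genes were higher in SkMel28 and 24.8% lower, 3 of 6 ATG8 genes were lower. Of the 10 conjugation genes 4 were higher and 0 lower, and of the 9 genes for cargo receptors and TBK1 2 were higher and 3 lower. Limma gave 1 conjugation gene as lower at an unadjusted p under 0.05. At the adjusted threshold limma, edgeR and DESeq2 each called 0 lower. With spike-in scaling the ATG8 genes MAP1LC3B (-0.33) and GABARAPL2 (-0.36) were no longer called, and the call of the conjugation gene ATG3 was lost in 11 alternatives.

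**Figure D4:**
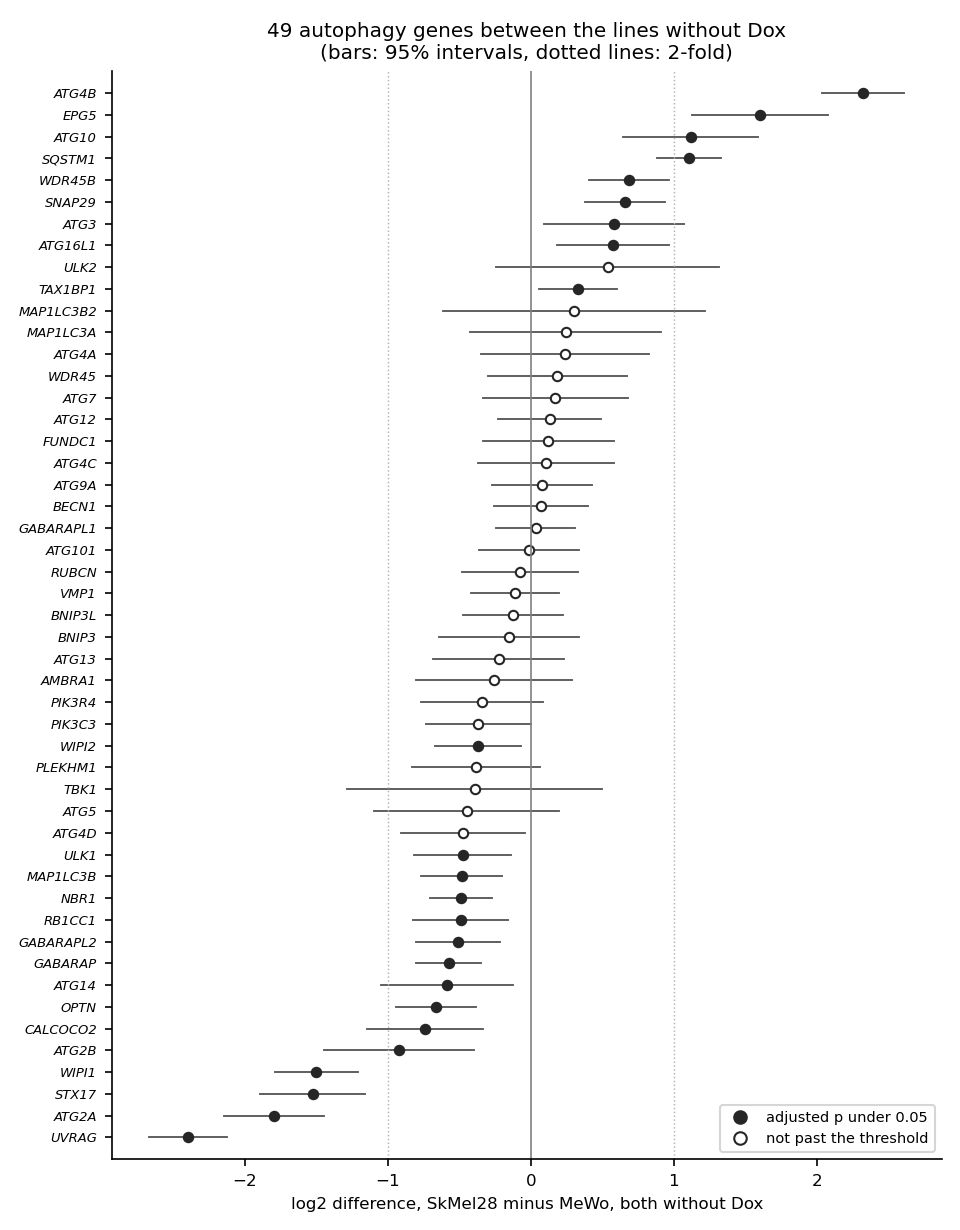
Log2 difference between the lines without Dox (x axis, SkMel28 minus MeWo) for the 49 members in order of size, with 95% intervals; filled points passed an adjusted p of 0.05 and dotted lines mark 2-fold. ATG4B is at the top with 2.33 and UVRAG at the bottom with -2.39, and 24 points are filled.

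MITF and its relatives bind short E-box letters, and promoter sequence was therefore searched on both strands for the core CACGTG, for its extended form TCACGTG and for the variant TCATGTG. A match to TCACGTG always holds a match to CACGTG. RefSeq promoters on GRCh38.p14, 250 bases before to 50 bases after the start, were available for 41 of the 49 genes. CACGTG stood in 5 of them (12.2%), against 10.5% of promoters of genes in the table and 7.43% of all promoters. TCACGTG stood in 4 (9.76%), against 6.18% and 3.82%, and TCATGTG in 1 (2.44%), against 1.70% and 2.99%. Of the 12 members called with Dox, 9 had a promoter in the table, 0 of these held TCACGTG or TCATGTG, and 1, BNIP3, held CACGTG. The absence of these letters says only that they are not in this window. The 6 promoters with a match are shown around it, 5′ to 3′ on the strand of the gene, with the matched letters in capitals. ATG101 is at chr12:52069733-52069769, ATG14 at chr14:55411830-55411866, ATG3 at chr3:112561936-112561996, SNAP29 at chr22:20858808-20858844, TBK1 at chr12:64452073-64452109 and BNIP3 at chr10:131982037-131982072. ATG101, SNAP29 and TBK1 lie on the plus strand and the others on the minus strand. A match on the opposite strand appears as its reverse complement.
ATG101: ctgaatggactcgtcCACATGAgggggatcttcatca
ATG14: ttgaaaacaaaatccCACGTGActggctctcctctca
ATG3: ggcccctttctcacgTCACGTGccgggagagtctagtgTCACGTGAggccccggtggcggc
SNAP29: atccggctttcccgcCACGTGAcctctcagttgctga
TBK1: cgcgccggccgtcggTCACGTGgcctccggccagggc
BNIP3: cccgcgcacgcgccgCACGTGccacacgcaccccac
For comparison, the promoter of ATG2B (chr14:96363292-96363591, minus strand), the called member with the largest change whose promoter was in the table, held none of these letters in its 300 bases.
ATG2B: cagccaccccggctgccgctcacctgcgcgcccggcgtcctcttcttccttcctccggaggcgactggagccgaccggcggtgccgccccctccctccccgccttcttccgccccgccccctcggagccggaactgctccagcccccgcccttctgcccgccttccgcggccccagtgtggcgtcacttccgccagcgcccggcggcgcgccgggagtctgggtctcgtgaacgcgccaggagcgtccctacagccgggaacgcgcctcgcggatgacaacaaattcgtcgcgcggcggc

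A second list held 64 further genes of the pathway, such as tethering factors, other receptors and upstream kinases, of which 63 were in the table. In MeWo 17 of these were called (27%, against 16.7% of all genes), 7 higher (8.58% of all genes) and 10 lower (8.12% of all genes), MITF itself among the latter. That count ranged from 6 to 22 over the alternatives, where 6.44 to 31% of all genes were called. The list was chosen with earlier results of these data known. In SkMel28 8 were called (12.7%, against 10.9% of all genes), 3 higher (5.88%) and 5 lower (5.04%), again with MITF. The median changes were -0.03 and -0.02. Its largest rises in MeWo were those of HDAC6 (0.94 ± 0.24), a deacetylase that brings protein aggregates to autophagosomes, and MTMR14 (0.80 ± 0.24), a phosphatase of PI3P. HDAC6 read 19.9, 18.3 and 16.2 without Dox and 21.1, 43.6 and 48.4 with Dox, and MTMR14 read 19.9, 13.6 and 15.5 without and 17.9, 37.9 and 35.6 with Dox. In both genes Dox replicate 1 lay near or within the control range. The HDAC6 call was lost without MeWo control replicate 3 (0.86) or Dox replicate 2 (0.79) or 3 (0.72), and the MTMR14 call without control replicate 2 (0.69) or 3 (0.78) or Dox replicate 2 (0.62) or 3 (0.66).

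The largest falls on that list in MeWo were those of RAB1A, a GTPase of early secretion, and NRBF2, a subunit of the PI3-kinase complex. RAB1A read 184, 209 and 190 in MeWo control and 118, 74.3 and 85.4 with Dox, a log2 change of -1.09 ± 0.14 (SE, n = 3 per group, adjusted p = 3.12e-05). NRBF2 read 30.5, 29.5 and 38.5 without and 18.8, 11.0 and 20.3 with Dox, a change of -0.97 ± 0.22 (adjusted p = 0.00505). Both were separate from control in every library. The RAB1A call was kept in all 23 alternatives, while the NRBF2 call was lost in 1 of 23, with adjusted p of 0.00142 to 0.0877.

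In SkMel28 the largest rises were those of DEPTOR, an inhibitor of mTOR (1.04 ± 0.23), and RETREG1, a receptor for the endoplasmic reticulum (0.94 ± 0.21), listed under its older symbol FAM134B. Both were also called higher in MeWo, at 0.71 ± 0.23 and 0.70 ± 0.21. The DEPTOR call in MeWo was lost in 14 of 23 alternatives and the RETREG1 call in 7, among them the fit without MeWo Dox replicate 1 (0.61 and 0.50). In SkMel28 the RETREG1 call was lost without Dox replicate 2 (0.81). The largest falls in SkMel28 were those of EI24, an endoplasmic reticulum protein needed for late steps (-1.23 ± 0.13), and TECPR1, a tether (-0.67 ± 0.17). The TECPR1 call was lost without SkMel28 control replicate 3 (-0.63) or Dox replicate 1 (-0.57) or 2 (-0.59). EI24 read 136, 136 and 128 in SkMel28 control and 52.8, 59.8 and 57.1 with Dox, and 125, 108 and 111 in MeWo control and 51.7, 70.5 and 53.5 with Dox. Its change in MeWo was -0.97 ± 0.13 (adjusted p = 6.05e-05), so that EI24 was called lower with Dox in both lines.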

How the data were processed

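RNA was measured in 12 libraries made with the QuantSeq Forward 3′ mRNA kit. Per the submitters' processing notes, reads were handled with FastQC 0.11.7, cutadapt 2.8, STAR 2.5.1b (hg38) and edgeR. The counting tool, its annotation, its use of strand and its treatment of reads matching several places are not given in the sources used here. The deposited values are a normalised signal, in which the authors divided gene counts by effective library sizes, and the table holds features that passed a low-value filter. Whole reads were recovered from the steps of the values, with 100% of values whole within 0.01 of a read, and they served for edgeR and DESeq2 as alternatives only. No column was left unused (0 columns).

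Changes were fitted with limma 3.58.1 (R 4.3.3) on log2(value + 1) in a single model of all 4 groups with a mean-variance trend. Contrasts were Dox against control in each line, their difference, and SkMel28 against MeWo without Dox. Fold changes on this scale understate the change of low genes. P-values were adjusted over all 12616 genes, and they measure the spread between these samples, since the sources do not state beyond the labels how separate the cultures were. Alternatives were edgeR 4.0.16, DESeq2 1.42.0, spike-in, upper-quartile and quantile scaling, pseudocounts of 0.1 and 5, a filter of at least 5 in 3 libraries, no trend, a replicate block, each line alone, and each library left out. Scripts were tested on simulated data. Values compare libraries, not genes, since 3′ reads differ in yield between transcripts. Gene positions are those of GENCODE v44 on hg38.

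The members and lists were chosen with earlier results of these data known. Every member called with Dox is named with its values, together with the 10 largest differences between the lines, members whose libraries separated the same way in both lines, and from the second list the 2 largest called changes in each direction and line. Genes named after their values were seen are marked as such.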

Additional observations from a re-analysis of the deposited data

Results flagged for a closer look

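Changes with Dox that differed between the lines by limma's test of the difference itself (3 libraries per group) were found for 4 of the named genes. The log2 change in MeWo minus that in SkMel28 was -0.78 for UVRAG (adjusted p = 0.0170), 1.097 for ATG4B (adjusted p = 0.00244), -0.75 for RAB1A (adjusted p = 0.0297) and -1.05 for NRBF2 (adjusted p = 0.0480). The ATG4B difference passed in all 22 alternatives, that of UVRAG in 20, that of RAB1A in 12 and that of NRBF2 in 8. Over the alternatives the adjusted p ranged from 1.60e-05 to 0.0217 for ATG4B, from 0.00579 to 0.380 for UVRAG, from 9.19e-05 to 0.398 for RAB1A and from 0.01004 to 0.212 for NRBF2.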

How the results depend on the processing

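The count of members called with Dox in MeWo (7) was 4 without a mean-variance trend (13.4% of all genes) and 3 with each line fitted alone (6.44%). When a library was left out it was 2 to 16 (10.2 to 31% of all genes). In SkMel28 (5) it was 2 with spike-in scaling (7.35% of all genes) and 3 without the trend (8.74%). It was 1 to 10 there when a library was left out (6.21 to 16.2% of all genes). The count for the difference between lines (2) was 1 with spike-in scaling (12.1% of all genes). It was 1 to 9 when a library was left out (3.56 to 24.7% of all genes). The 24 members that differed between the lines varied from 17 to 26, where 45.1 to 56.6% of all genes differed. For the further autophagy genes, the count in MeWo (17) was 6 with each line alone and 8 to 22 when a library was left out. Their count in SkMel28 (8) was 6 to 15 when a library was left out. Their count for the difference (7) was 4 with a pseudocount of 0.1 (5.07% of all genes) and 1 without the trend (4.39%). It was 1 to 25 when a library was left out. The other shares of all genes are those given above for the same settings. In each Dox comparison of the members, the highest of these counts came without MeWo Dox replicate 1.

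Same-numbered libraries were not shown to be paired. Their deviations correlated at -0.305 to 0.289, 2 of 6 pairs were over 0.1, and in 1 pair the same number was the best partner. With 3 libraries per group this check cannot exclude pairing. With a replicate block the difference between lines was called for 4 further genes instead of 7, and the calls of BNIP3 in MeWo (adjusted p = 0.0511, 1.05e-05 to 0.264 over its alternatives), DEPTOR in MeWo (log2 change 0.71, adjusted p 0.0157 to 0.179 over its alternatives) and NRBF2 for the difference (adjusted p = 0.0503, 0.01004 to 0.212) were lost.

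With spike-in scaling, uncalled estimates changed sign for the differences between lines of MITF (0.0657), WIPI1 (0.32), MAP1LC3B (0.27), DEPTOR (0.0101) and RETREG1 (0.13), for ATG2B in MeWo (0.19) and for NRBF2 in SkMel28 (-0.0153). When a library was left out, uncalled estimates near zero changed sign for BECN1 (-0.13 to 0.27), ATG2B (-0.22 to 0.0595) and TECPR1 (-0.10 to 0.13) in MeWo, for OPTN (-0.18 to 0.0390), CALCOCO2 (-0.14 to 0.0769), HDAC6 (-0.20 to 0.0243) and NRBF2 (-0.0196 to 0.19) in SkMel28, and for the differences of WIPI1 (-0.23 to 0.0412) and MAP1LC3B (-0.22 to 0.0351). The cause was not tested. A fit of each line alone gives no difference between lines. Depth limits the 8 members with a median under 30 reads, whose small changes were not detectable.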
